A study of Apera spica-venti with 32 samples.

Results

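The response of population S2 of Apera spica-venti to pinoxaden was followed across all transcript features of its leaves. Apera spica-venti (silky windgrass) is a grass weed of winter cereals. The 8 S2 libraries, of 32 in the series, were taken by their labels: 4 from sprayed plants and 4 from untreated plants. Both S2 groups carry the genotype label susceptible and come from greenhouse-grown leaves. Sprayed plants received pinoxaden once, as a commercial emulsion, at 45 g of active ingredient per ha at the young leaf stage, and leaves were cut 8 h later. For the untreated plants no mock spray is recorded and their harvest hour is not given separately. The herbicide, the other components of the product, the act of spraying and the hour of harvest therefore cannot be told apart. Each library is a pool of 3 plants of 1 population. The series also holds sprayed and untreated libraries of population S1, likewise susceptible, and of R1 and R2, resistant to multiple herbicides, with 4 libraries in each group.

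Pinoxaden blocks acetyl-CoA carboxylase, the enzyme that commits acetyl-CoA to fatty acid synthesis; in grasses the plastid form is a single large sensitive protein, which is why such compounds kill grasses and spare most broadleaf crops. Plants commonly answer foreign chemicals by oxidation through cytochrome P450 enzymes, by conjugation to glutathione or sugars, and by export of the conjugates through ABC and MATE transporters. Heat shock proteins are chaperones that hold or refold unfolded proteins, and are switched on by heat stress transcription factors under many stresses besides heat.

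The deposited table counts 39590 open reading frames, here called features, on assembled contigs; 25036 passed the filter on low counts and were tested, on 20677 contigs. Features on 1 contig share a transcript and are not independent genes. Descriptions exist only for features that the authors had listed as differentially expressed on these same libraries, so a list of described features is not independent evidence of a direction. Totals were 30574166 to 31729311 counts in the sprayed S2 libraries and 30809584 to 42142004 in the untreated ones. Leaf identity was plain: photosystem features held 42.7% to 45.0% of counts in sprayed and 43.4% to 46.9% in untreated libraries, and only 2 features of the seed, pollen and root list could be tested, neither of them called. The first principal component, with 26.1% of the variance, separated all sprayed from all untreated libraries. Untreated replicate 2 stood apart on the second component (14.8% of the variance), at -96.3 against 28.4 to 36.8 for the other 3 untreated libraries; list counts above 2 are also given without it where they move by over 1.5 times.

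A feature is said to have been called, and to have risen or fallen in sprayed plants, when its p from edgeR's quasi-likelihood test, adjusted by the Benjamini-Hochberg method over all 25036 features, was under 0.05. In S2, 1804 features were called, 7.21% of those tested: 1152 rose (4.6%) and 652 fell (2.6%). In bulk leaves a lower level can mean fewer cells of a type or less RNA per cell, which cannot be told apart. The median log2 fold change was 1.37 among features that rose and -0.67 among those that fell, against -0.01 over all features. A log2 fold change of at least 1 in size was reached by 938 of the called features (3.75% of those tested), 767 of them rising and 171 falling. At 2 or more, 378 features rose and 33 fell. CPM, which is not corrected for length, was lower for rising than for falling features, with a median of 2.58 CPM, a count divided by the scaled total of its library, over the S2 libraries, against 11.2 CPM for falling and 1.66 CPM for all tested features. Sprayed and untreated CPM did not overlap for 1494 called features (82.8%), against 12.0% of all tested features. Of the called features, 1755 carried a description, but for only 839 did it name a protein or family. The share of calls that rose was 63.9%; with library totals in place of the TMM scaling factors it was 90.4%, since that scale moved the median of all features to 0.19, and the number of falling calls dropped to 203. Changes below are relative to the TMM scale.

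**Figure D1:**
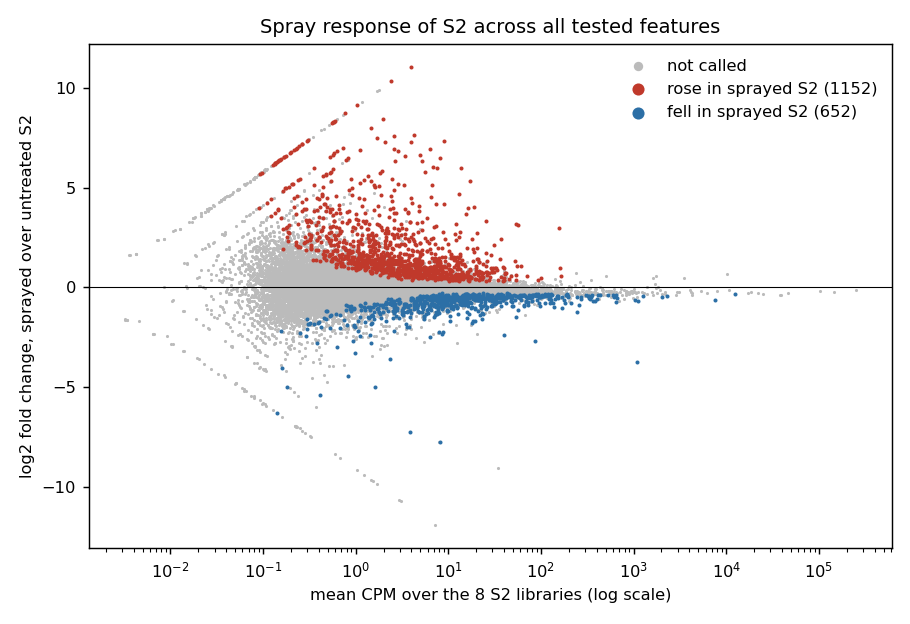
Log2 fold change, sprayed over untreated S2, of each tested feature against its mean CPM over the 8 S2 libraries (log scale). Grey points were not called; 1152 features rose and 652 fell, and of those with a log2 fold change of at least 1 in size, 767 rose and 171 fell.

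Features that rose are described first by the 8 with the smallest p among those with a protein name, a log2 fold change of at least 1 in size and no overlap, 1 per description. The lack of overlap in these 8, and in the 8 falling features below, therefore follows from the choice. Some features with no protein name had p as small. By their descriptions, 3 of the 8 are chaperones or their partners, 2 belong to the ubiquitin pathway and 3 are signalling or regulatory proteins. Feature TRINITY_DN2682_c0_g1_i4.p1, described as a dnaJ protein homolog and so of the family that delivers substrates to Hsp70, had 95.0, 102, 98.8 and 89.9 CPM in sprayed S2 replicates 1 to 4, against 9.22, 11.5, 11.6 and 10.4 CPM in untreated replicates 1 to 4. The 4 sprayed libraries were close together and all lay far above the untreated ones (log2 fold change 3.18 ± 0.25, adjusted p = 5.41e-09). A cytosolic Hsp70 fragment, CytHSP70 (TRINITY_DN11298_c0_g1_i1.p2), gave 29.2, 43.2, 38.1 and 33.5 CPM in sprayed and 1.80, 2.16, 2.05 and 2.66 CPM in untreated libraries, without overlap (4.05 ± 0.33, adjusted p = 9.23e-09). An hsp70-binding protein 1-like feature (TRINITY_DN9818_c0_g1_i9.p1), of a family that regulates nucleotide exchange on Hsp70, averaged 22.0 ± 3.71 CPM in sprayed and 2.41 ± 0.227 CPM in untreated libraries (SD, n = 4 each; 3.19 ± 0.32, adjusted p = 3.38e-07).

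The E3 ubiquitin-protein ligase RDUF1-like feature (TRINITY_DN9782_c0_g1_i2.p1) was read only after spraying: it had 6.97, 4.48, 4.59 and 3.28 CPM in sprayed libraries and no count in any of the 4 untreated ones. Its 615 counts against a floor of 3 counts over the untreated group make it at least 211-fold higher in sprayed S2 (adjusted p = 4.25e-08). Such ligases mark proteins for degradation. Ubiquitin-conjugating enzyme 28 (TRINITY_DN1202_c0_g3_i1.p1), which passes ubiquitin to the ligases, rose less, with 27.6, 32.8, 25.1 and 35.5 CPM in sprayed and 11.5, 12.4, 13.9 and 12.4 CPM in untreated libraries; the lowest sprayed library was still above the highest untreated one (1.27 ± 0.13, adjusted p = 2.08e-07).

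Among signalling and regulatory features, the EF-hand Ca2+-binding protein CCD1 (TRINITY_DN26810_c0_g1_i8.p2) had 7.99, 9.49, 11.1 and 7.99 CPM in sprayed and 0.684, 0.402, 0.572 and 0.860 CPM in untreated libraries (3.83 ± 0.38, adjusted p = 2.08e-07). NFXL1 (TRINITY_DN1664_c0_g1_i8.p1), an NF-X1-type zinc finger protein and a regulator of stress responses in Arabidopsis, varied more, with 29.9, 69.3, 35.5 and 52.0 CPM in sprayed and 5.44, 3.33, 4.74 and 4.98 CPM in untreated libraries. Sprayed replicate 2 was the highest and replicate 1 the lowest, and the groups did not overlap (3.33 ± 0.34, adjusted p = 4.61e-07). WRKY transcription factor 19 (TRINITY_DN8249_c0_g1_i5.p1) averaged 4.74 ± 1.23 CPM in sprayed and 0.229 ± 0.0634 CPM in untreated libraries (SD, n = 4 each; 4.33 ± 0.46, adjusted p = 4.61e-07).

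**Figure D2:**
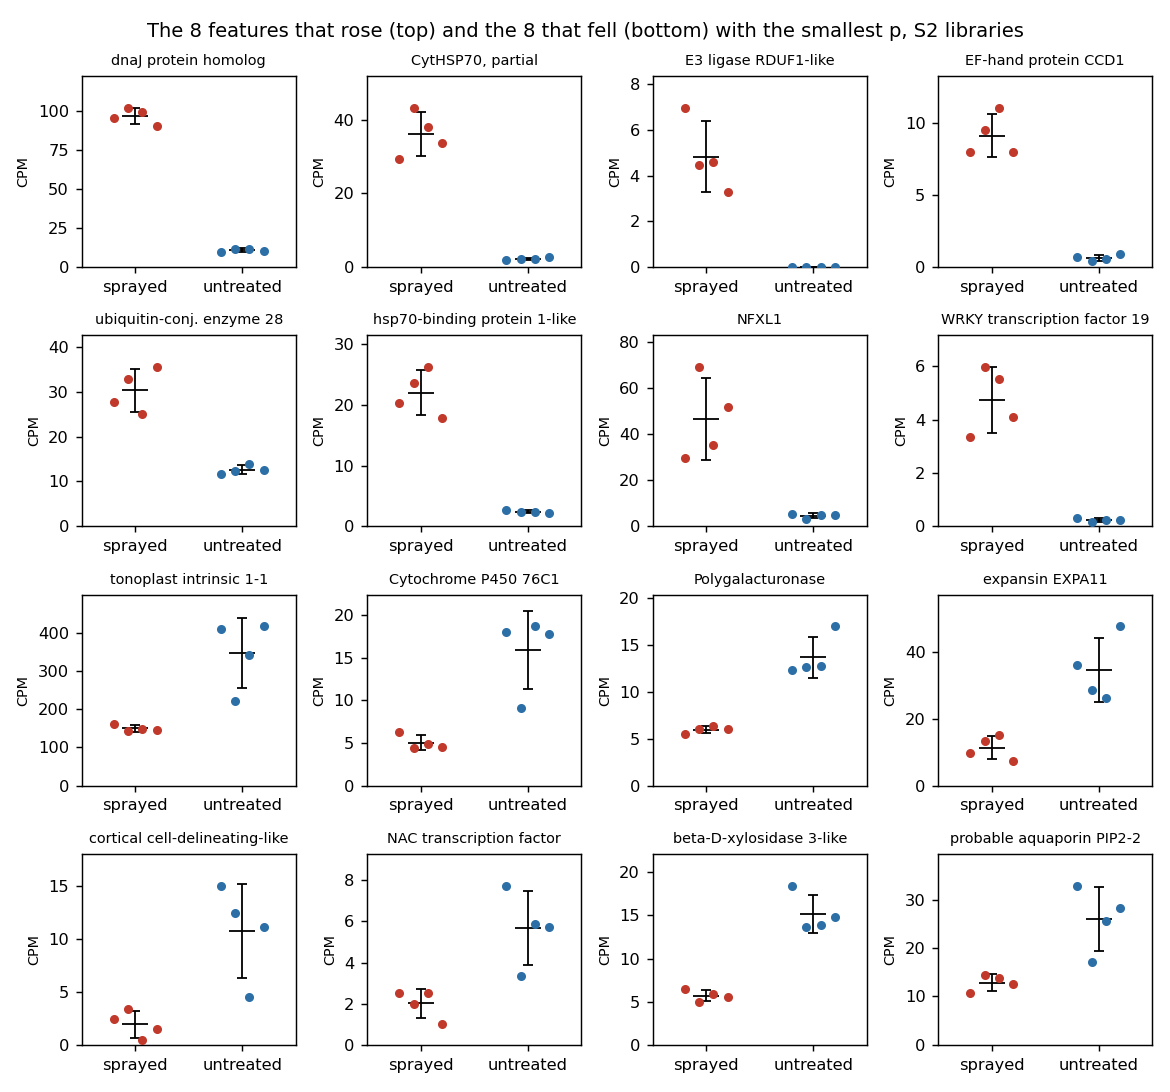
CPM in the 4 sprayed (left in each panel) and 4 untreated (right) S2 libraries for the 8 features that rose and the 8 that fell with the smallest p among those with a protein name, a log2 fold change of at least 1 in size and no overlap, 1 per description. Points are libraries, bars are the mean and SD; the RDUF1-like ligase sits at 0 in all 4 untreated libraries, and the falling features keep some level after spraying.

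By the same rule, and again among features with a protein name, the 8 with the smallest p that fell included membrane channels, cell wall proteins and a P450. The vacuolar water channel tonoplast intrinsic protein 1-1 (TRINITY_DN1064_c1_g1_i1.p1) had 162, 144, 147 and 144 CPM in sprayed and 411, 221, 341 and 416 CPM in untreated libraries. Untreated replicate 2 was the lowest of its group and still above every sprayed library (-1.22 ± 0.15, adjusted p = 4.20e-06). Cytochrome P450 76C1 (TRINITY_DN3630_c0_g1_i3.p1) averaged 5.03 ± 0.870 CPM in sprayed and 15.9 ± 4.58 CPM in untreated libraries (-1.66 ± 0.21, adjusted p = 4.44e-06). The aquaporin PIP2-2 (TRINITY_DN2551_c0_g2_i2.p1), a plasma membrane water channel, averaged 12.9 ± 1.67 CPM in sprayed and 26.0 ± 6.60 CPM in untreated libraries (SD, n = 4 each; -1.01 ± 0.19, adjusted p = 7.43e-04).

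Cell wall features among these were expansin EXPA11 (TRINITY_DN2746_c0_g1_i8.p1), which loosens walls during growth and had 9.86, 13.5, 15.0 and 7.34 CPM in sprayed and 36.3, 28.6, 26.2 and 47.8 CPM in untreated libraries (-1.60 ± 0.25, adjusted p = 7.98e-05). The pectin-cutting polygalacturonase (TRINITY_DN7008_c0_g1_i11.p1) averaged 5.94 ± 0.361 CPM in sprayed and 13.6 ± 2.21 CPM in untreated libraries (-1.20 ± 0.18, adjusted p = 5.24e-05). The beta-D-xylosidase 3-like feature (TRINITY_DN5725_c0_g1_i3.p1), of a family that trims xylan, changed by -1.41 ± 0.25 (adjusted p = 3.87e-04). A cortical cell-delineating protein-like feature (TRINITY_DN9521_c0_g1_i20.p1) showed the largest fall of the 8, -2.47 ± 0.40 (adjusted p = 1.58e-04), and a NAC transcription factor (TRINITY_DN129_c0_g2_i1.p1) fell by 1.49 ± 0.26 on the log2 scale (adjusted p = 3.77e-04).

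Gene groups were lists of words searched in the descriptions, and their counts are read against the 14.7% of all described tested features that rose and the 8.09% that fell. Counts describe the lists, since no list was compared with a full background. In 9 lists some members matched only part of a word or another meaning of it; the counts without them, chosen after the members were seen, are given where they differ. Where a list member had no count in 1 of the 2 S2 groups, setting it to its bound left the list's median as it was.

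**Figure D3:**
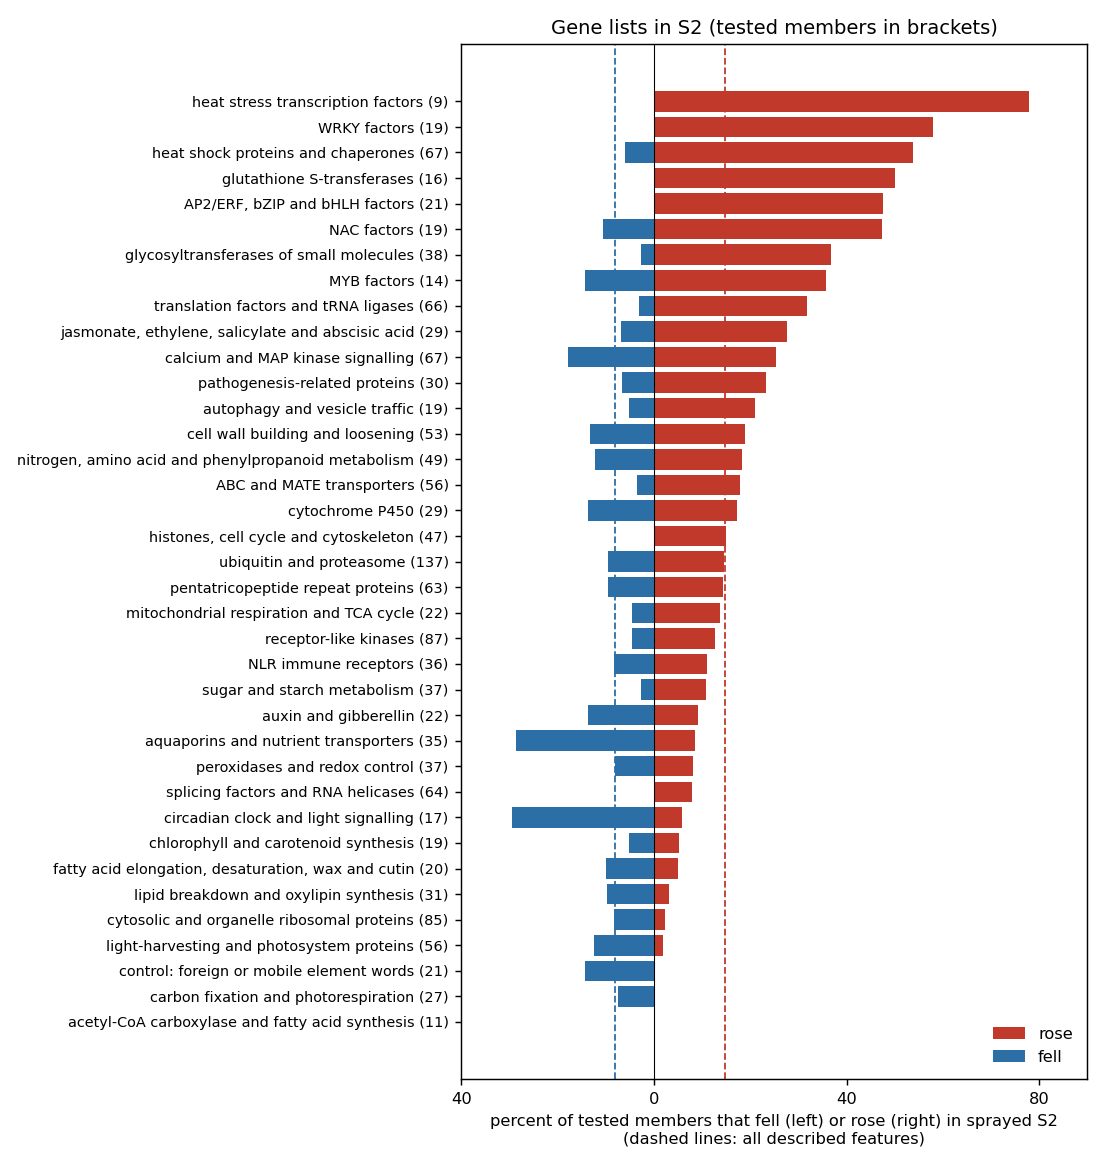
Percent of the tested members of each list that rose (red, right) or fell (blue, left) in sprayed S2, with the number of tested members in brackets. Dashed lines mark all described tested features, 14.7% rising and 8.09% falling. The heat stress factors lead the rising side, with 7 of 9 members, the 9 lying on 7 contigs.

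Among the lists, chaperones held the most rising members. Of 67 heat shock proteins and chaperones tested, 36 rose, 4 fell and 27 were not called, with a median log2 fold change of 1.07. The 67 features lie on 61 contigs. Without 4 members of another meaning, 35 of 63 rose. Leaving out any 1 of the S2 libraries gave 33 to 36 rising members, and library totals alone gave 39. The list's share of all counts was 0.122% to 0.166% in sprayed and 0.0649% to 0.0771% in untreated libraries, without overlap. A two-sided exact permutation test gave p = 0.0286, the smallest that 4 against 4 allows, and an adjusted p of 0.171 over 9 composition measures. The list holds only features that the authors had listed as differentially expressed on these same libraries, so this test adds no independent support.

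Rising chaperones included features described as mitochondrial, chloroplastic and peroxisomal. Heat shock protein 90.1 (TRINITY_DN846_c0_g1_i7.p1), which matures signalling proteins, had 222, 302, 334 and 259 CPM in sprayed and 35.0, 43.8, 34.1 and 27.0 CPM in untreated libraries (3.00 ± 0.35, adjusted p = 2.50e-06). The most counted member, heat shock cognate 70 kDa protein 2 (TRINITY_DN1609_c0_g1_i17.p1), averaged 213 ± 16.2 CPM in sprayed and 107 ± 15.2 CPM in untreated libraries, without overlap (0.99 ± 0.20, adjusted p = 0.00141). Heat shock protein 90.1 and the organelle members below were chosen after their values were seen. Among mitochondrial members, the small 24.1 kDa heat shock protein (TRINITY_DN1241_c0_g1_i1.p1), a holdase that keeps unfolded proteins soluble, averaged 5.29 ± 1.09 CPM in sprayed and 0.0570 ± 0.0913 CPM in untreated libraries (6.38 ± 0.74, adjusted p = 2.17e-06). The 26.2 kDa mitochondrial-like protein (TRINITY_DN20568_c0_g1_i3.p2) had 150 counts in sprayed libraries and none in untreated ones, at least 51.5-fold higher. The mitochondrial chaperonin CPN60-2 (TRINITY_DN830_c0_g1_i4.p1), which folds proteins in a closed barrel, changed by 2.44 ± 0.50 (adjusted p = 0.00249).

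Chloroplastic chaperones moved both ways. The chloroplastic ClpD1 chaperone (TRINITY_DN1329_c0_g2_i9.p5), which unfolds proteins for a protease, rose by 2.15 ± 0.34 (adjusted p = 1.31e-04), and the stromal 70 kDa heat shock-related protein (TRINITY_DN3695_c1_g1_i2.p1) by 0.48 ± 0.15 (adjusted p = 0.0385). In contrast, the chloroplastic 10 kDa chaperonin 1 (TRINITY_DN1373_c0_g1_i1.p1), the lid of the plastid chaperonin, changed by -0.42 ± 0.12 (adjusted p = 0.0360). A chloroplastic-like dnaJ 11 (TRINITY_DN244_c0_g1_i13.p4) changed by -1.19 ± 0.33 (adjusted p = 0.0225), but its sprayed and untreated CPM overlapped and the call was lost without any 1 of 5 single libraries. No chaperone fell when sprayed replicate 2, sprayed replicate 4 or untreated replicate 1 was left out, and 5 fell without untreated replicate 2.

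Heat stress transcription factors, which switch on heat shock genes, rose as well: 7 of 9 rose, none fell, and the median log2 fold change was 2.88. The 9 features lie on 7 contigs. Of the members, the HSF-type DNA-binding domain containing protein (TRINITY_DN1992_c2_g1_i12.p1) had 4.86, 3.20, 3.20 and 2.40 CPM in sprayed and 0.356, 0.841, 0.337 and 0.339 CPM in untreated libraries. Untreated replicate 2 was the highest of its group and below every sprayed library (2.88 ± 0.42, adjusted p = 3.50e-05). The A2c reading frame (TRINITY_DN1992_c2_g1_i12.p2, 2.43 ± 0.48) lies on the same contig. Factor A-3 (TRINITY_DN12357_c0_g1_i2.p1) averaged 3.64 ± 1.89 CPM in sprayed and 0.135 ± 0.0753 CPM in untreated libraries (4.66 ± 0.68, adjusted p = 4.64e-05). The A2c frame and factor A-3 were chosen after their values were seen. Between 6 and 7 members rose when 1 library was left out.

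Members of other transcription factor families rose too. Of 19 WRKY factors, regulators of defence and stress genes, 11 rose and none fell (median log2 fold change 1.96); 9 to 12 rose when 1 library was left out, 6 with the replicate block and 7 in a fit to the S2 libraries alone. WRKY4 (TRINITY_DN1140_c0_g1_i8.p1) averaged 13.6 ± 2.46 CPM in sprayed and 3.49 ± 0.831 CPM in untreated libraries (1.96 ± 0.22, adjusted p = 1.39e-06). The most counted member, a WRKY-like protein (TRINITY_DN18563_c0_g1_i6.p1), was not called, at 21.9 ± 3.16 CPM in sprayed and 18.1 ± 0.707 CPM in untreated libraries (adjusted p = 0.238). WRKY4 was chosen after its values were seen.

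Of 19 NAC factors, which act in stress and senescence, 9 rose and 2 fell. The NAC transcription factor TRINITY_DN767_c1_g1_i1.p1 averaged 0.993 ± 0.257 CPM in sprayed and 0.0678 ± 0.0527 CPM in untreated libraries (3.80 ± 0.56, adjusted p = 4.71e-05). The most counted, NAC domain-containing protein 14 (TRINITY_DN246_c0_g1_i27.p1), rose by 0.71 ± 0.12 (adjusted p = 2.39e-04). Of 14 MYB factors 5 rose and 2 fell: TaMYB1 (TRINITY_DN34189_c0_g1_i5.p1) averaged 6.68 ± 0.582 CPM in sprayed and 1.16 ± 0.312 CPM in untreated libraries (2.51 ± 0.27, adjusted p = 5.55e-07), while the MYB-related protein TRINITY_DN492_c0_g1_i30.p2 averaged 16.2 ± 2.59 CPM in sprayed and 31.2 ± 4.58 CPM in untreated libraries (-0.94 ± 0.13, adjusted p = 2.47e-05). Of 21 AP2/ERF, bZIP and bHLH factors, 10 rose and none fell, led by bHLH153 (TRINITY_DN902_c0_g1_i35.p2, 2.21 ± 0.29, adjusted p = 8.96e-06); 6 rose without sprayed replicate 3 or 4 or without untreated replicate 1, 3 or 4.

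**Figure D4:**
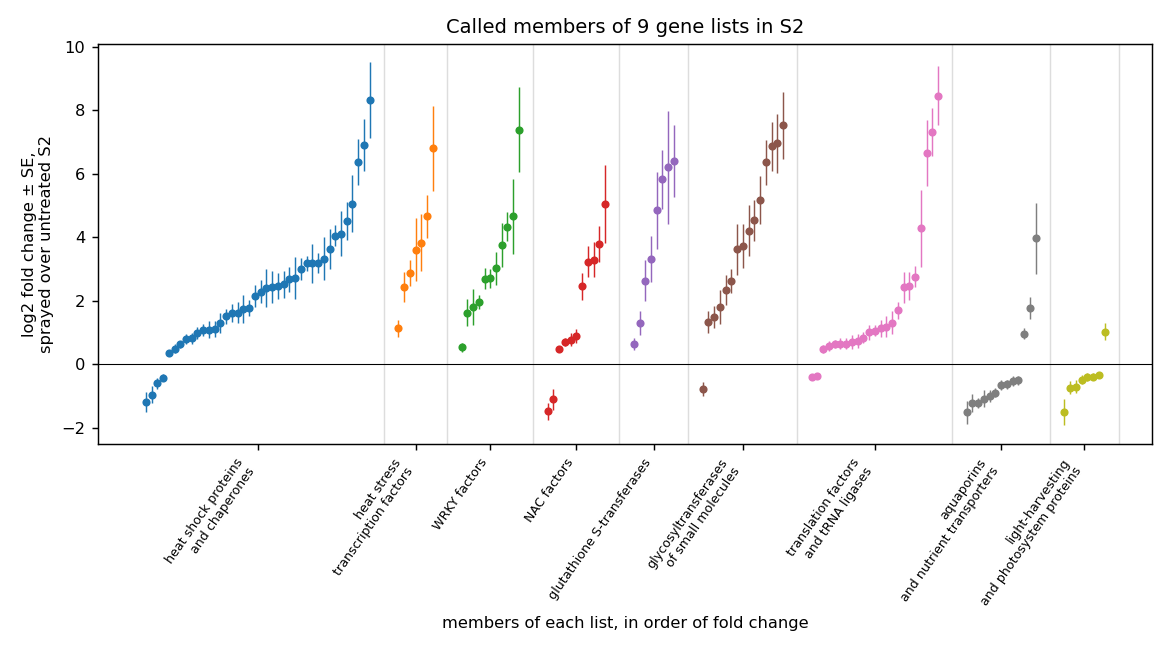
Log2 fold change ± SE, sprayed over untreated S2, of the called members of 9 lists, in order of fold change within each list. Rising members of several lists, heat shock proteins and translation factors among them, reach log2 fold changes above 6, while falling members of the aquaporin and photosystem lists fell by under 2; the highest fits belong to features near or at 0 in untreated plants.

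Detoxification genes are given by enzyme type; differences between these lists were not tested. Of 16 glutathione S-transferases, which join glutathione to electrophilic compounds, 8 rose and none fell (median log2 fold change 1.21). The parC-type transferase (TRINITY_DN5305_c0_g1_i4.p1) had 1.36, 5.58, 2.67 and 5.48 CPM in sprayed and 0, 0.0366, 0.236 and 0 CPM in untreated libraries; the only untreated library above 0.04 CPM was replicate 3 (5.83 ± 0.93, adjusted p = 1.48e-04). The most counted member, transferase F11 (TRINITY_DN13935_c0_g1_i3.p1), was not called, with 17.4 ± 1.60 CPM in sprayed and 18.8 ± 2.66 CPM in untreated libraries (adjusted p = 0.682). Without untreated replicate 2, 5 members rose, and 2 in a fit to the S2 libraries alone.

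Glycosyltransferases of small molecules, which attach sugars to hormones and foreign compounds, rose in 14 of 38 members and fell in 1. The UDP-glycosyltransferase 74F2-like feature (TRINITY_DN17_c0_g3_i1.p1) had 5.17, 21.1, 7.76 and 7.48 CPM in sprayed and 0.0820, 0.183, 0.168 and 0.0782 CPM in untreated libraries. Sprayed replicate 2 was by far the highest, and all sprayed libraries were above all untreated ones (6.37 ± 0.71, adjusted p = 2.00e-06). The 74E1-like (TRINITY_DN5501_c0_g1_i2.p1, 6.87 ± 0.78) and 74E2-like features (TRINITY_DN4975_c0_g1_i1.p1, 6.96 ± 0.94), chosen after their values were seen, rose to a like degree. The count of rising members was 12 to 14 with any 1 library left out. The most counted, UGT74H11 (TRINITY_DN2595_c0_g1_i1.p1), was not called (0.82 ± 0.39, adjusted p = 0.237).

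Cytochrome P450 features, the oxidising enzymes, moved both ways: 5 of 29 rose, 4 fell, and the median log2 fold change was -0.12. The 709B1-like P450 (TRINITY_DN16815_c1_g1_i18.p1) averaged 3.15 ± 0.604 CPM in sprayed and 0.0876 ± 0.0711 CPM in untreated libraries (5.07 ± 0.63, adjusted p = 5.59e-06), opposite to P450 76C1 above. Without sprayed replicate 2 or 3 or untreated replicate 4, 3 P450 features rose. Among 56 ABC and MATE transporters 10 rose and 2 fell, a rising share of 17.9% close to that of all described features. The first of them, ABC transporter E family member 2 (TRINITY_DN5032_c0_g1_i13.p1, 3.02 ± 0.53, adjusted p = 4.24e-04), belongs to a class that recycles ribosomes and does not export compounds. The MATE exporter DETOXIFICATION 16-like (TRINITY_DN5054_c0_g1_i35.p1) had 0.136, 4.93, 0.711 and 0.372 CPM in sprayed libraries and no count in untreated ones. Sprayed replicate 2 held most of its 213 counts, and the call was lost without any 1 of 4 single libraries. Without sprayed replicate 4, untreated replicate 1 or untreated replicate 3, 6 transporters rose. The 2 falls were not called without sprayed replicate 2 or 4 or untreated replicate 1 or 2.

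Translation factors and tRNA ligases rose in 21 of 66 members and fell in 2, with a median log2 fold change of 0.41; library totals alone gave 34 rising members, and leaving out untreated replicate 3 gave 12. Eukaryotic translation initiation factor 6-2, which keeps ribosomal subunits apart, had 2 features on 1 contig that rose and were at or near 0 in untreated libraries. One (TRINITY_DN2098_c0_g1_i46.p2) had 3.37, 13.3, 5.39 and 9.10 CPM in sprayed and 0, 0.0366, 0 and 0.130 CPM in untreated libraries, with sprayed replicate 1 lowest and no overlap (7.32 ± 0.76, adjusted p = 6.00e-07). Another feature of that description on another contig (TRINITY_DN2567_c0_g1_i5.p1) was not called, at 14.5 ± 1.82 CPM in sprayed and 12.3 ± 1.66 CPM in untreated libraries (adjusted p = 0.215). Chloroplastic elongation factor Tu (TRINITY_DN18213_c0_g2_i1.p1), which brings aminoacyl-tRNA to the plastid ribosome, averaged 373 ± 12.5 CPM in sprayed and 487 ± 41.5 CPM in untreated libraries (-0.39 ± 0.08, adjusted p = 0.00305); with library totals alone it was not called.

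Ribosomal proteins changed little as a group: 2 of 85 rose and 7 fell, a falling share close to the 8.09% of all described features. The 7 falling members were described as chloroplastic, but how many of the 85 were so described was not counted. Their falls were small, as in 30S ribosomal protein S31 (TRINITY_DN5784_c0_g2_i1.p2, -0.47 ± 0.10, adjusted p = 0.00201), and none was called with library totals alone. Without untreated replicate 2, 11 fell, against 2 without untreated replicate 1, 3 without sprayed replicate 2 and 4 without sprayed replicate 4. The 60S acidic ribosomal protein P2A-like feature (TRINITY_DN383_c0_g1_i4.p2) had 3.23, 10.5, 2.64 and 17.4 CPM in sprayed and 0.0273, 0.0366, 0.0673 and 0.0261 CPM in untreated libraries, and sprayed replicates 2 and 4 were well above 1 and 3 (7.66 ± 1.17, adjusted p = 2.95e-04). Of 137 ubiquitin and proteasome features, 20 rose and 13 fell, shares near those of all described features; without sprayed replicate 2, 11 rose and 8 fell, and without untreated replicate 4, 8 fell.

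In the pathway of the herbicide's target, none of 11 acetyl-CoA carboxylase and fatty acid synthesis features passed the test, by edgeR or by DESeq2 (8 without members of another meaning); 4 had an unadjusted p under 0.05 by edgeR, 1 fell when untreated replicate 3 was left out, and their median log2 fold change was -0.25. The acetyl-coenzyme A carboxylase TRINITY_DN1720_c0_g2_i1.p1 had 219, 208, 223 and 204 CPM in sprayed and 242, 355, 239 and 227 CPM in untreated libraries. The groups did not overlap, but untreated replicate 2 stood well above the other 3, and the change of -0.32 ± 0.13 had an adjusted p of 0.139. The feature described as cytosolic acetyl-CoA carboxylase 2 (TRINITY_DN1720_c0_g1_i7.p1) had 213, 197, 203 and 153 CPM in sprayed and 226, 334, 189.6 and 227 CPM in untreated libraries, with overlap (-0.35 ± 0.13, adjusted p = 0.100). Without untreated replicate 3 it was the member called (-0.47 ± 0.13, adjusted p = 0.0300). The descriptions do not settle which of the pair is the plastid form.

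Further along lipid metabolism, 1 of 20 elongation, desaturation and surface lipid features rose and 2 fell. 3-ketoacyl-CoA synthase 11 (TRINITY_DN867_c1_g1_i1.p1), of the family that lengthens fatty acids for waxes, averaged 11.5 ± 4.44 CPM in sprayed and 4.95 ± 0.360 CPM in untreated libraries (1.21 ± 0.32, adjusted p = 0.0192), a call lost without any 1 of 4 single libraries. Of 31 lipid breakdown and oxylipin features, 1 rose and 3 fell. A GDSL-motif lipase (TRINITY_DN26058_c0_g1_i2.p1) averaged 0.336 ± 0.255 CPM in sprayed and 1.87 ± 0.808 CPM in untreated libraries (-2.46 ± 0.49, adjusted p = 0.00170).

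Few photosynthesis features were called. Of 56 light-harvesting and photosystem features 1 rose and 7 fell, with a median log2 fold change of -0.33; without 4 members of another meaning, such as a ferredoxin-dependent glutamate synthase, 1 of 52 rose and 5 fell. Without untreated replicate 2, 17 members fell; without untreated replicate 3 it was 1, without untreated replicate 1 or sprayed replicate 3 it was 2, and without sprayed replicate 2 it was 3. Library totals alone gave 1. A chlorophyll a-b binding protein of LHCII type 1 (TRINITY_DN25781_c0_g2_i1.p2) had 48.3, 53.1, 51.1 and 55.5 CPM in sprayed and 101, 49.3, 106 and 91.3 CPM in untreated libraries, and the lowest untreated library lay within the sprayed range (-0.74 ± 0.20, adjusted p = 0.0190). The most counted member, photosystem II protein D1, the plastid-encoded reaction centre protein (TRINITY_DN17730_c0_g1_i13.p2), was not called (-0.21 ± 0.10, adjusted p = 0.244).

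Of 27 carbon fixation features none rose and 2 fell, or 6 without untreated replicate 2. Rubisco activase (TRINITY_DN843_c0_g1_i20.p1), which frees Rubisco of bound inhibitors, averaged 1951 ± 111 CPM in sprayed and 2623 ± 171 CPM in untreated libraries, without overlap (-0.43 ± 0.11, adjusted p = 0.0186), and was not called with library totals alone. The Rubisco large subunit (TRINITY_DN2228_c0_g1_i4.p2) was not called (-0.13 ± 0.10, adjusted p = 0.515), and its sign changed with library totals alone. Among 17 circadian clock and light signalling features 1 rose and 5 fell. The rising one was zinc finger protein CONSTANS-LIKE 13 (TRINITY_DN19892_c0_g1_i19.p4, 1.07 ± 0.17, adjusted p = 9.39e-05). Among those that fell, a phototropin-like blue light receptor (TRINITY_DN329_c0_g1_i35.p1) averaged 79.3 ± 2.64 CPM in sprayed and 111 ± 10.5 CPM in untreated libraries (-0.48 ± 0.11, adjusted p = 0.00355). No fall in this list was called with library totals alone, 1 was without sprayed replicate 2 or 3, and 2 were without untreated replicate 1 or 3. Since no harvest hour is recorded for untreated plants, the hour of day and the spray cannot be told apart in this list or in any other.

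Water channels and nutrient transporters fell more often than they rose, with 10 of 35 falling, 3 rising and a median log2 fold change of -0.51; with library totals alone 5 fell and 4 rose. Beside the tonoplast and PIP2-2 channels above, aquaporin PIP2-5 (TRINITY_DN1194_c0_g2_i1.p1), chosen after its values were seen, averaged 51.2 ± 3.13 CPM in sprayed and 95.3 ± 17.8 CPM in untreated libraries (-0.90 ± 0.13, adjusted p = 4.64e-05). A nitrate or peptide transporter of the NRT1/PTR family (TRINITY_DN5780_c0_g1_i4.p1) went the other way, at 40.6 ± 10.4 CPM in sprayed and 20.7 ± 5.35 CPM in untreated libraries (0.97 ± 0.18, adjusted p = 8.90e-04). Without any 1 library 5 to 11 members fell, the fewest without untreated replicate 1.

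Cell wall features moved both ways, 10 of 53 rising and 7 falling, and without sprayed replicate 4 only 3 fell. The 4 called expansin features, on 3 contigs, fell, but expansins were not a list of their own and their uncalled members were not counted. The probable xyloglucan glycosyltransferase 9 (TRINITY_DN6679_c0_g1_i15.p1), which builds the xyloglucan backbone, averaged 33.2 ± 8.95 CPM in sprayed and 14.7 ± 1.82 CPM in untreated libraries (1.17 ± 0.16, adjusted p = 2.12e-05). Among 22 auxin and gibberellin features 2 rose and 3 fell, the rises numbering 0 or 1 with any 1 library left out. The auxin-induced protein 5NG4 (TRINITY_DN4188_c0_g1_i9.p1) averaged 24.3 ± 3.58 CPM in sprayed and 41.7 ± 6.51 CPM in untreated libraries (-0.78 ± 0.16, adjusted p = 0.00177).

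Stress hormone features rose in 8 of 29 members, or 5 without untreated replicate 1, and fell in 2. Repressors of jasmonate signalling led: TIFY 10A (TRINITY_DN6866_c0_g1_i1.p1) had 3.40, 4.87, 3.05 and 4.06 CPM in sprayed and 0.957, 0.658, 1.04 and 0.730 CPM in untreated libraries, without overlap (2.18 ± 0.32, adjusted p = 4.10e-05). TIFY 11b (TRINITY_DN1298_c0_g1_i8.p2, 1.82 ± 0.27), chosen after its values were seen, belongs to the same family. Of 67 calcium and MAP kinase features 17 rose and 12 fell, or 7 without sprayed replicate 3. The plasma membrane calcium-transporting ATPase 2 (TRINITY_DN1221_c0_g1_i3.p1), which pumps calcium out of the cytosol, averaged 30.0 ± 3.97 CPM in sprayed and 11.3 ± 0.667 CPM in untreated libraries (1.41 ± 0.19, adjusted p = 9.68e-06). Glutamate receptor 3.4 (TRINITY_DN163_c0_g1_i7.p1), a calcium channel, averaged 37.0 ± 4.86 CPM in sprayed and 59.3 ± 4.12 CPM in untreated libraries (-0.68 ± 0.13, adjusted p = 7.97e-04).

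In the defence lists, 7 of 30 features caught by pathogenesis-related words rose and 2 fell; without 8 members of another meaning it was 6 and 2 of 22. Without untreated replicate 2, 4 fell, and without untreated replicate 4 it was 1. Of the rising members 4 were called without sprayed replicate 2 or 4 or without untreated replicate 1, 3 or 4. The falling glucan endo-1,3-beta-glucosidase 14 (TRINITY_DN10141_c0_g1_i14.p1), which cuts callose, averaged 9.89 ± 0.628 CPM in sprayed and 18.5 ± 2.70 CPM in untreated libraries (-0.90 ± 0.16, adjusted p = 3.58e-04). A class IV endochitinase (TRINITY_DN7578_c1_g1_i2.p1), chosen after its values were seen, averaged 29.0 ± 14.2 CPM in sprayed and 7.54 ± 4.41 CPM in untreated libraries (1.95 ± 0.57, adjusted p = 0.0362). Of 36 NLR immune receptors 4 rose and 3 fell, and of 87 receptor-like kinases 11 rose and 4 fell. In the receptor-like kinase list 6 rose without sprayed replicate 2 or 4 or untreated replicate 1 or 3; 0 to 3 fell when 1 library was left out, with 0 or 1 without sprayed replicate 2, 3 or 4 or untreated replicate 1, and none fell with library totals alone. In the NLR list 2 rose without sprayed replicate 2 or 4 or untreated replicate 1, 2 or 4, and 1 or none fell without sprayed replicate 3 or 4 or untreated replicate 2, 3 or 4. The most counted NLR, described as putative disease resistance protein At1g58400 (TRINITY_DN9296_c0_g1_i2.p1), had 31.8, 29.0, 48.4 and 47.6 CPM in sprayed and 8.18, 13.4, 9.89 and 16.1 CPM in untreated libraries (1.72 ± 0.32, adjusted p = 7.80e-04).

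In energy metabolism, of 22 mitochondrial features 3 rose and 1 fell; the external NADH-ubiquinone oxidoreductase 1 (TRINITY_DN8472_c0_g3_i2.p1), an alternative entry to the respiratory chain that pumps no protons, had 3.06, 8.84, 4.24 and 4.16 CPM in sprayed and 0.301, 0.732, 0.168 and 0.313 CPM in untreated libraries (3.76 ± 0.59, adjusted p = 1.18e-04). Of 49 nitrogen, amino acid and phenylpropanoid features 9 rose and 6 fell. Among those that fell was nitrate reductase (TRINITY_DN1722_c0_g1_i6.p1), at 71.1 ± 4.84 CPM in sprayed and 111 ± 12.2 CPM in untreated libraries (-0.64 ± 0.16, adjusted p = 0.0103). The rising member with the smallest p was a glutamine--fructose-6-phosphate aminotransferase 2-like feature (TRINITY_DN803_c0_g2_i2.p1, 1.51 ± 0.21, adjusted p = 2.43e-05). Sugar and starch features rose in 4 of 37 and fell in 1, redox features rose in 3 of 37 and fell in 3, and autophagy and vesicle features rose in 4 of 19 and fell in 1. Histone, cell cycle and cytoskeleton features rose in 7 of 47 and splicing and helicase features in 5 of 64, with no fall in either, though 1 histone list member fell without untreated replicate 2, 3 or 4. Pentatricopeptide repeat proteins rose in 9 of 63 and fell in 6, and chlorophyll and carotenoid synthesis had 1 rising and 1 falling of 19. The nitrogen falls numbered 2 without sprayed replicate 3 and 10 without untreated replicate 2, the histone rises 4 without untreated replicate 1 or 4, the splicing rises 1 without sprayed replicate 4, and the pentatricopeptide rises 3 without untreated replicate 1 or 4. The pentatricopeptide falls numbered 1 to 5 with any 1 library left out, the fewest without sprayed replicate 2, with 3 without untreated replicate 2 and 1 with library totals alone. Redox features fell in 8 without untreated replicate 2, and rose in 1 without untreated replicate 1 or 2 or sprayed replicate 4 and in none without untreated replicate 3. Autophagy rises numbered 1 without sprayed replicate 2 or 4 and 2 without untreated replicate 1, 3 or 4, and mitochondrial rises 1 without untreated replicate 3 or 4 and 9 with library totals alone. Sugar and starch falls numbered 4 without sprayed replicate 1, and chlorophyll and carotenoid falls 4 without untreated replicate 4.

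Some features were read in only 1 of the S2 groups. Called features with no count in any untreated library numbered 32, and 1 had no count in any sprayed library. A feature with no untreated S2 count entered the test only through other groups where it was read. How many uncalled tested features had no count in either S2 group was not counted, so these numbers are not a result about direction. Beside the RDUF1-like ligase, the heavy metal-associated isoprenylated plant protein 47-like feature (TRINITY_DN18599_c0_g2_i1.p2), of a family of metal-binding proteins, had 1.26, 2.27, 2.84 and 1.93 CPM in sprayed libraries. Its 270 counts make it at least 92.8-fold higher in sprayed S2 (adjusted p = 7.74e-06). The one read only without spray, TRINITY_DN145357_c0_g1_i1.p1, has no description; its 37 untreated counts make it at least 12.0-fold lower in sprayed S2. Absence of counts limits the level in untreated leaves at this depth and covers counting error only.

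Some of the largest falls rested on 1 library. Of 33 features that fell by at least 2 on the log2 scale, 4 had over 90% of their untreated CPM in untreated replicate 2, and 26 of the 33 were still called without that library. Without any 1 of the other S2 libraries 17 to 26 were, the fewest without sprayed replicate 4, and 17 were with the replicate block and 15 in a fit to the S2 libraries alone. The feature TRINITY_DN99_c1_g2_i1.p2, described only as a hypothetical protein, had 165, 122, 196 and 124 CPM in sprayed and 168, 7496, 348 and 188 CPM in untreated libraries, and apart from untreated replicate 2 the groups overlapped. It was chosen after its values were seen. Of the 1152 features that rose, 945 were still called without untreated replicate 2, and of the 652 that fell, 502. Without it the response held 1930 calls, 1119 of them rising.

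The response was set beside that of the other populations, which share no library with S2. S1 had 5000 calls, or 20.0% of tested features (10.9% rising and 9.04% falling), R1 had 1425, or 5.69% (3.84% rising and 1.85% falling), and R2 had 411, or 1.64% (1.28% rising and 0.359% falling). Of the S2 calls, 1468 were also called in S1 in the same direction, which is 81.4% of the S2 calls and 29.4% of those in S1. With R1 the overlap was 691, 38.3% of the S2 calls and 48.5% of those in R1, and with R2 it was 331, 18.3% of the S2 calls and 80.5% of those in R2. None was called in the opposite direction in S1, R1 or R2. Over the 1804 features called in S2, chosen there, log2 fold changes correlated with those in S1 at Pearson r = 0.908, with R1 at 0.844 and with R2 at 0.859, as a description across features that are not independent. The features that rose in S2 had a median log2 fold change of 1.37 in S2, where they were chosen, of 1.49 in S1, 0.91 in R1 and 0.67 in R2.

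**Figure D5:**
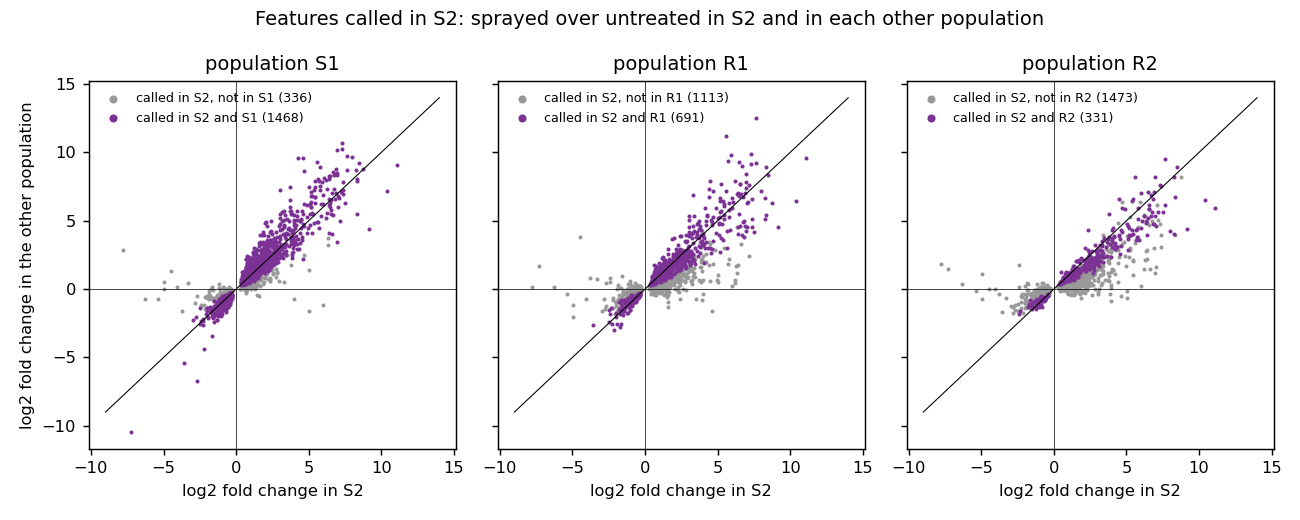
Log2 fold change, sprayed over untreated, of the 1804 features called in S2, in S2 (horizontal) and in S1, R1 and R2 (vertical). Purple points were also called in the other population (1468, 691 and 331), grey points were not; the diagonal marks equal change.

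Chaperones rose in all 4 populations: 36 of 67 rose in S2, against 39 in S1, 24 in R1 and 23 in R2, and 4 fell in S2, against 11 in S1. Heat stress factors rose in 7 of 9 in S2, 9 in S1, 5 in R1 and 4 in R2. The photosystem list gave 7 falling members of 56 in S2, against 48 in S1, with medians of -0.33 in S2 and -0.62 in S1; no photosystem member was called in the difference between the populations' responses, and the difference between the counts was not tested. Splicing and helicase features likewise rose in 5 of 64 in S2, against 46 in S1. Over all tested features the share called was 20.0% in S1, against 7.21% in S2, 5.69% in R1 and 1.64% in R2. The share of described features called in S1, R1 and R2 was not counted, so these counts are not a result about the lists themselves.

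Tested directly, the S2 response differed from the S1 response in 7 features (0.028% of those tested), all of them lower in S2. The sulfite exporter TauE/SafE family protein 4 (TRINITY_DN3389_c0_g1_i17.p1), a membrane protein, had 2.89, 3.40, 2.13 and 4.20 CPM in sprayed S2 and 2.95, 2.45, 2.29 and 2.61 CPM in untreated S2. In S1 it had 8.83, 9.92, 12.4 and 7.50 CPM in sprayed and 2.52, 2.40, 2.01 and 1.87 CPM in untreated libraries. The groups overlapped in S2 and not in S1 (difference of log2 fold changes -1.84 ± 0.25, adjusted p = 7.79e-04).

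The chloroplastic 3-isopropylmalate dehydratase large subunit (TRINITY_DN311_c0_g1_i24.p1), an enzyme of leucine synthesis, changed by 0.65 ± 0.20 in S2 and 2.23 ± 0.20 in S1 (difference -1.58 ± 0.28, adjusted p = 0.0224). Of the other 5 features, 2 lay on the contigs of these and none had a protein name. Without sprayed S1 replicate 4 there were 39 calls. There were 2 without sprayed S2 replicate 1, untreated S1 replicate 2 or untreated S1 replicate 4, and 3 or 4 without sprayed S1 replicate 2 or 3, untreated S2 replicate 3 or 4 or untreated S1 replicate 1. DESeq2 gave 113, of which 35 were higher in S2, and a fit to the S1 and S2 libraries alone gave 0. Of the 336 S2 calls not made in S1, 310 had the same sign there and none was called in the difference. Against the mean response of the other 3 populations, S2 had no called feature by edgeR (0.0%), with 1194 at an unadjusted p under 0.05, a smallest adjusted p of 0.559, and 13 calls by DESeq2.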

How the data were processed

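Ribosome-depleted, strand-specific libraries of total leaf RNA were made by the submitters with the TruSeq Stranded Total RNA kit with Ribo-Zero Plant, per the labels' protocols; each is 1 of 4 biological replicates of 3 plants, so p-values measure the spread between such pools. The authors deposited whole-number counts per feature, not normalized, for 32 libraries; STAR 2.5.2b, R 3.6.1, FastQC 0.11.5 and DESeq2 1.24.0 are named, without roles, in the submitters' processing notes. The counter, its strand setting and the assembly are not given in the sources used here, so isoforms, near-identical copies and antisense reads may share counts. Descriptions came from the authors' deposited table of log2 fold changes and adjusted p-values, which lists only features that passed their thresholds; its log2 and p-values were not used. All 32 columns matched a library (0 left over).

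Counts were fitted with edgeR 4.0.16 in R 4.3.3 (filterByExpr, TMM scaling, robust quasi-likelihood F test, 8 group means, 24 residual degrees of freedom), so that all groups share the estimate of spread (biological coefficient of variation 0.389). S2 sprayed minus untreated, its difference from S1, and its difference from the mean of the other 3 responses were tested, with Benjamini-Hochberg adjustment over 25036 features; SE is the log2 fold change divided by the square root of F. CPM uses TMM-scaled library sizes, is not corrected for length and is not compared between single features. Floors of 3 counts over a group and counting intervals cover counting error only. The steps were tested on simulated data. Alternatives were library totals, RLE factors, DESeq2 1.42.0, other filters, a fit without robust estimation, the replicate block, a fold threshold, fewer libraries and each library left out.

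Named features were the 8 called described ones with the smallest p per direction with a log2 fold change of at least 1 in size and no overlap, the first called member per direction and the most counted member of each list, every acetyl-CoA carboxylase, the described silent features with the most counts, and the first of each difference between populations. Not every feature so chosen is described in the text, though all are counted among the named features. Others are said to have been chosen after their values were seen. Each assembled gene had 1 contig, so its isoforms could not be set against each other. The lists and the comparison were chosen with earlier results of these data known.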

Additional observations from a re-analysis of the deposited data

Results flagged for a closer look

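Dixon's test at the 95% level was run on 238 groups of 4 libraries, over the named features and the 9 composition measures. In 26 of them (10.9%), all for named features, 1 library lay far from the other 3. The outlying library was untreated replicate 2 in 9 of the 26 and sprayed replicate 2 in 7, and what sets these libraries apart was not tested. The 1 in 20 of this level holds for normally distributed values, while some groups held only a few counts. Many named features were also chosen by p or overlap on these same values, so the 10.9% cannot be read against it.

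In untreated replicate 2, CPM were higher than in the other 3 untreated libraries for the HSF-type factor TRINITY_DN1992_c2_g1_i12.p1 (0.841, others 0.337 to 0.356), heat shock cognate protein TRINITY_DN1609_c0_g1_i17.p1 (129.6, others 97.7 to 103), the acetyl-coenzyme A carboxylase TRINITY_DN1720_c0_g2_i1.p1 (355, others 227 to 242) and an RNA helicase, TRINITY_DN10425_c0_g1_i8.p1 (1.61, others 0.834 to 0.942). They were lower there for cytochrome P450 76C1, TRINITY_DN3630_c0_g1_i3.p1 (9.07, others 17.8 to 18.7), and for the xyloglucan glycosyltransferase TRINITY_DN6679_c0_g1_i15.p1 (12.0, others 15.4 to 15.9). Likewise lower there were the ethylene-forming oxidase TRINITY_DN3536_c0_g1_i9.p1 (63.5, others 134 to 148), chloroplast glutamine synthetase TRINITY_DN544_c0_g1_i31.p3 (457, others 529.9 to 540.3) and the exocyst component TRINITY_DN12878_c0_g2_i1.p1 (13.3, others 17.6 to 18.0).

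In sprayed replicate 2, CPM were higher than in the other 3 sprayed libraries for UDP-glycosyltransferase 74F2-like, TRINITY_DN17_c0_g3_i1.p1 (21.1, others 5.17 to 7.76), the MATE exporter TRINITY_DN5054_c0_g1_i35.p1 (4.93, others 0.136 to 0.711), ferredoxin-6, TRINITY_DN69426_c0_g1_i1.p1 (10.5, others 6.13 to 6.77), and an alpha tubulin, TRINITY_DN1979_c0_g1_i6.p1 (169, others 129 to 135). They were lower for Rubisco activase, TRINITY_DN843_c0_g1_i20.p1 (1785, others 2002 to 2010.3), Peroxidase 54, TRINITY_DN992_c0_g1_i26.p1 (346, others 369 to 371), and glutathione S-transferase F11, TRINITY_DN13935_c0_g1_i3.p1 (15.0, others 17.9 to 18.5).

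Other libraries stood apart less often. Sprayed replicate 1 was high for tonoplast intrinsic protein 1-1, TRINITY_DN1064_c1_g1_i1.p1 (162 CPM, others 144 to 147). Sprayed replicate 4 was high for geranylgeranyl diphosphate reductase, TRINITY_DN1708_c0_g1_i15.p1 (187 CPM, others 147 to 150.3), and low for an RPP13-like resistance protein, TRINITY_DN8122_c0_g1_i20.p1 (2.00 CPM, others 3.67 to 3.80). Untreated replicate 1 was high for the WRKY-like protein TRINITY_DN18563_c0_g1_i6.p1 (19.2 CPM, others 17.7 to 17.8). Untreated replicate 3 was high for NADH dehydrogenase subunit 1, TRINITY_DN1654_c0_g1_i13.p5 (872 CPM, others 702 to 728), 3-ketoacyl-CoA synthase 11, TRINITY_DN867_c1_g1_i1.p1 (5.49 CPM, others 4.70 to 4.82), and the parC-type transferase TRINITY_DN5305_c0_g1_i4.p1 (0.236 CPM, others 0 to 0.0366). Untreated replicate 4 was high for the calcium-transporting ATPase TRINITY_DN1221_c0_g1_i3.p1 (12.3 CPM, others 10.9 to 11.1) and the polygalacturonase TRINITY_DN7008_c0_g1_i11.p1 (16.9 CPM, others 12.3 to 12.7). It was also flagged for initiation factor 6-2, TRINITY_DN2098_c0_g1_i46.p1 (0.0261 CPM, others at 0), where that value is 1 count.

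The 7 features whose spray response was called lower in S2 than in S1, by edgeR with Benjamini-Hochberg adjustment, differed by these log2 amounts. The exporter TRINITY_DN3389_c0_g1_i17.p1 differed by -1.84 and a second frame of its contig, TRINITY_DN3389_c0_g1_i17.p3, by -1.66. The dehydratase TRINITY_DN311_c0_g1_i24.p1 differed by -1.58 and a second frame of its contig, TRINITY_DN311_c0_g1_i24.p2, by -1.48. The unnamed TRINITY_DN265_c0_g2_i3.p1, TRINITY_DN4497_c0_g1_i18.p1 and TRINITY_DN3730_c0_g1_i170.p1 differed by -1.59, -1.67 and -4.00.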

How the results depend on the processing

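The S2 response held 1094 to 2349 calls over all alternatives without a fold threshold, and more features rose than fell in each. It held 2104 with library totals, 1808 with RLE factors, 2349 by DESeq2, 1558 with no filter, 1909 with a stricter filter, 1545 with the S1 and S2 libraries alone and 1222 to 1930 when 1 S2 library was left out. It moved to 1094 (802 rising, 292 falling) with the S2 libraries alone, where fewer libraries set the spread, and to 938 (767 rising, 171 falling) with a log2 fold change of at least 1 also required. Libraries with the same replicate number did not deviate together (correlations 0.003, 0.019, -0.032 and -0.009), so the numbers were not taken to pair the samples; with the replicate block, 1318 features were called, 872 rising and 446 falling.

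The difference between the S2 and S1 responses moved from 7 calls to 20 with library totals, 113 by DESeq2, 4 with the replicate block and 0 with the S1 and S2 libraries alone, and to between 2 and 39 when 1 library was left out; the cause was not tested. The difference from the mean of the other populations had 13 calls by DESeq2 and 0 under the other alternatives.

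Of 84 named features called in S2, 46 were called in all 18 alternatives, 63 without each single library, and none changed sign. Library totals lost 15 and the S2 libraries alone lost 17 of those compared. Of 28 named features not called, 7 changed sign, all near 0. With library totals the log2 fold change was 0.012 for TRINITY_DN780_c0_g1_i10.p1, 0.011 for TRINITY_DN39802_c0_g1_i1.p1, 0.0027 for TRINITY_DN1979_c0_g1_i6.p1, 0.054 for TRINITY_DN2228_c0_g1_i4.p2, 0.074 for TRINITY_DN13935_c0_g1_i3.p1, 0.13 for TRINITY_DN1654_c0_g1_i13.p5 and 0.18 for TRINITY_DN945_c0_g1_i9.p1. TRINITY_DN945_c0_g1_i9.p1 also gave 0.0066 with the replicate block, 0.0041 with the S2 libraries alone and -0.13 to 0.082 with 1 library left out. TRINITY_DN1654_c0_g1_i13.p5 gave -0.13 to 0.0042 with 1 library left out.

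Rising chaperones numbered 33 to 39 under the alternatives without a fold threshold. With library totals rising calls over all features numbered 1901 and falling ones 203, and list counts moved likewise, to 34 rises for translation factors, 34 for ubiquitin and proteasome and 14 for splicing factors. Totals of 30574166 to 42142004 counts leave features with few counts imprecise, and absence of counts in a group bounds a level without showing absence. The 10 most counted features of each library held 66.1% to 68.5% of the total in sprayed and 65.9% to 69.6% in untreated S2 libraries. Descriptions cover only part of the features, no mock spray is recorded, and 1 harvest was sampled.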

Other observations

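Among features with no count in any of the 4 untreated S2 libraries, a pair of contigs carried the same uncharacterized description. TRINITY_DN4244_c0_g1_i10.p1 had 2.41, 12.9, 3.55 and 12.6 CPM in sprayed replicates 1 to 4, with 1016 counts in all, at least 349-fold higher in sprayed S2 (edgeR, adjusted p = 1.87e-05). TRINITY_DN32370_c0_g1_i3.p1 had 33 counts, at least 11.3-fold higher (adjusted p = 0.00307). For the first of them sprayed replicates 2 and 4 were above 1 and 3, and both were called in S2. The E3 ubiquitin-protein ligase EL5-like feature TRINITY_DN16178_c0_g2_i1.p1 had 146 counts and the transcription factor WRKY62, TRINITY_DN22201_c0_g4_i1.p1, had 78, at least 50.2-fold and 26.8-fold higher. The histone-lysine N-methyltransferase ATXR6, which marks replicated chromatin in Arabidopsis, was also read only after spraying, on contigs TRINITY_DN51788_c0_g2_i1.p1 (35 counts) and TRINITY_DN51788_c0_g1_i1.p2 (34 counts). All features named here were chosen after their values were seen.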
